A study of Mus musculus with 6 samples.

Results

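The matrix metalloproteinases (MMPs) and the tissue inhibitors of metalloproteinases (TIMPs) were examined in mouse cochlear nucleus after the auditory nerve of 1 ear had been silenced. The members were Mmp2, Mmp9, Mmp14, Mmp15, Mmp16, Mmp17, Timp1, Timp2, Timp3 and Timp4, and every probe set whose single gene symbol was one of these was taken, which gave 22 of the 22690 probe sets on the array. They covered 9 of the 10 genes, because no probe set carried Mmp15 as its single symbol. The family was chosen by the log2 difference of Mmp2, which was low on the infused side in an earlier look at the same arrays, so the values of the comparison between the sides are given as a description of the members. Member probe sets entered the fit over all probe sets like any other, and nothing is read from its p-values about them.

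Mice at postnatal day 21 had received tetrodotoxin (TTX), a toxin that blocks voltage-gated sodium channels and so stops action potentials, in 1 cochlea from an osmotic pump for 24 h. The ipsilateral group was the cochlear nucleus of the infused side and the contralateral group was the nucleus of the other side, with 3 pools per side, each pool made from 10 to 12 mice and measured on 1 array. All mice carried the pump, none were untreated, and the strain is not given in the sources used here, so a difference between the sides cannot be assigned to either of them. The cochlear nucleus is the first brainstem station of hearing and receives the axons of the auditory nerve.

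MMPs are zinc-dependent proteases that cut extracellular matrix and cell surface proteins. They are made as inactive proenzymes whose propeptide must be removed. TIMPs bind the active site and block it, so that the activity of a tissue depends on proteases, activators and inhibitors together. In the brain, MMPs trim perineuronal matrix, synaptic adhesion proteins and the basement membrane of vessels.

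Mmp2 (gelatinase A) is activated at the cell surface by the membrane-anchored Mmp14 with Timp2 as the bridge between them, since Timp2 inhibits 1 molecule of Mmp14 and holds the proenzyme of Mmp2 with its other end. The proximal promoters of these activation partners are shown because they are the genes on which the state of Mmp2 protein depends. RefSeq promoter sequences (GRCm38.p6) were found for 6 of the 10 members, Mmp14, Mmp15, Timp1, Timp2, Timp3 and Timp4. None was found for Mmp2, Mmp9, Mmp16 or Mmp17, so the motif counts do not cover these genes. The 250 bases before the start site are printed 5′ to 3′ on the gene's strand. Capitals mark GC boxes (GGGCGG, on both strands), the motif bound by Sp1 and Sp3. The Mmp14 stretch is chr14:54431348-54431597 on the plus strand, and the Timp2 stretch is chr11:118355412-118355661 on the minus strand.
Mmp14: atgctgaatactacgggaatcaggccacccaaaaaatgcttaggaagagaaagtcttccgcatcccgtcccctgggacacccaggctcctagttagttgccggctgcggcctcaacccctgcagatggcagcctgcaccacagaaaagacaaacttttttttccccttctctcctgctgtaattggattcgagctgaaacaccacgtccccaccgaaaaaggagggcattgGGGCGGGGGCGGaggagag
Timp2: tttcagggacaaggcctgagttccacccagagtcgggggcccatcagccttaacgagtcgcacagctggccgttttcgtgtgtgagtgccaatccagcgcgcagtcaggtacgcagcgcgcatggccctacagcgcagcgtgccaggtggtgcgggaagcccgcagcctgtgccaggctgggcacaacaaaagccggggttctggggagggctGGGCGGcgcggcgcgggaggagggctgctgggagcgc

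The Mmp14 promoter held 2 GC boxes, beginning 19 and 13 bases before the start site, and the Timp2 promoter held 1, beginning 37 bases before it. Of the 6 member promoters, 5 held a GC box, against 32.7% of the 32851 promoters in the table. The AP-1 motif TGANTCA, on both strands, was in 0 of the 6 windows and in 6.75% of all promoters. A match of letters describes the sequence and says nothing of binding.

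Expression is given as deposited log2 values, in which a difference of 1 is a doubling of signal. A probe set entered the fit when its values averaged more than 4 over the 6 arrays, and 17 of the 22 member probe sets, of 7 genes, passed this limit. Over all 15298 probe sets tested with limma, 0 had a Benjamini-Hochberg adjusted p below 0.05 (0%), and 364 (2.38%) had an unadjusted p below 0.05. With the replicate number as a block these counts were 0 and 569 (3.72%), and an ordinary equal-variance test per probe set gave 0 and 423 (2.77%). If no probe set differed, 765 would be expected at an unadjusted p below 0.05, more than any of these counts. Sorted by whether the arrays of the sides overlapped, 1 of the 17 member probe sets, that of Mmp2, lay lower on all 3 ipsilateral arrays than on every contralateral array, and 0 lay higher. Over all probe sets tested these shares were 3.44% and 2.82%. The median difference of the 17 was 0.02, beside -0.01 over all probe sets tested.

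The tissue label was checked against markers. Of 10 measured hindbrain and cochlear nucleus genes 7 passed the limit of 4, among them the hindbrain patterning genes Hoxa2 (5.45 ± 0.37 contralaterally and 5.45 ± 0.34 ipsilaterally, SD, n = 3 each) and Hoxb2, the granule lineage factor Zic1 and the glycine receptor gene Glra1. Hoxb3, Atoh1 and Slc6a5 were below the limit. On the infused side 7 of 13 neuronal, 10 of 12 astrocyte, 9 of 9 oligodendrocyte and 10 of 12 tested microglial markers were higher on average, by medians of 0.05, 0.04, 0.14 and 0.16. Their averages lay at 10.77 to 10.98, 10.29 to 10.46, 12.25 to 12.59 and 6.80 to 7.06 contralaterally, and at 10.75 to 11.08, 10.43 to 10.46, 12.49 to 12.58 and 7.00 to 7.10 ipsilaterally. The arrays differed in choroid plexus, the secretory tissue of the ventricles that borders the nucleus. The mean log2 value of its 9 measured markers, all above the limit, was 7.99, 7.74 and 7.23 on contralateral arrays 1, 2 and 3. On ipsilateral arrays 1, 2 and 3 it was 9.01, 4.78 and 5.01. All 9 were lower on the infused side on average. Folr1, the folate receptor of this epithelium, measured 7.91 ± 0.55 and 5.79 ± 3.16, Kcne2, a potassium channel subunit, 6.91 ± 0.33 and 4.62 ± 3.21, and the transthyretin gene Ttr 15.46 ± 0.22 and 13.57 ± 2.06. Ipsilateral array 1 thus stood above every contralateral array and ipsilateral arrays 2 and 3 stood below them, and member values are given below with and without these arrays.

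**Figure D1:**
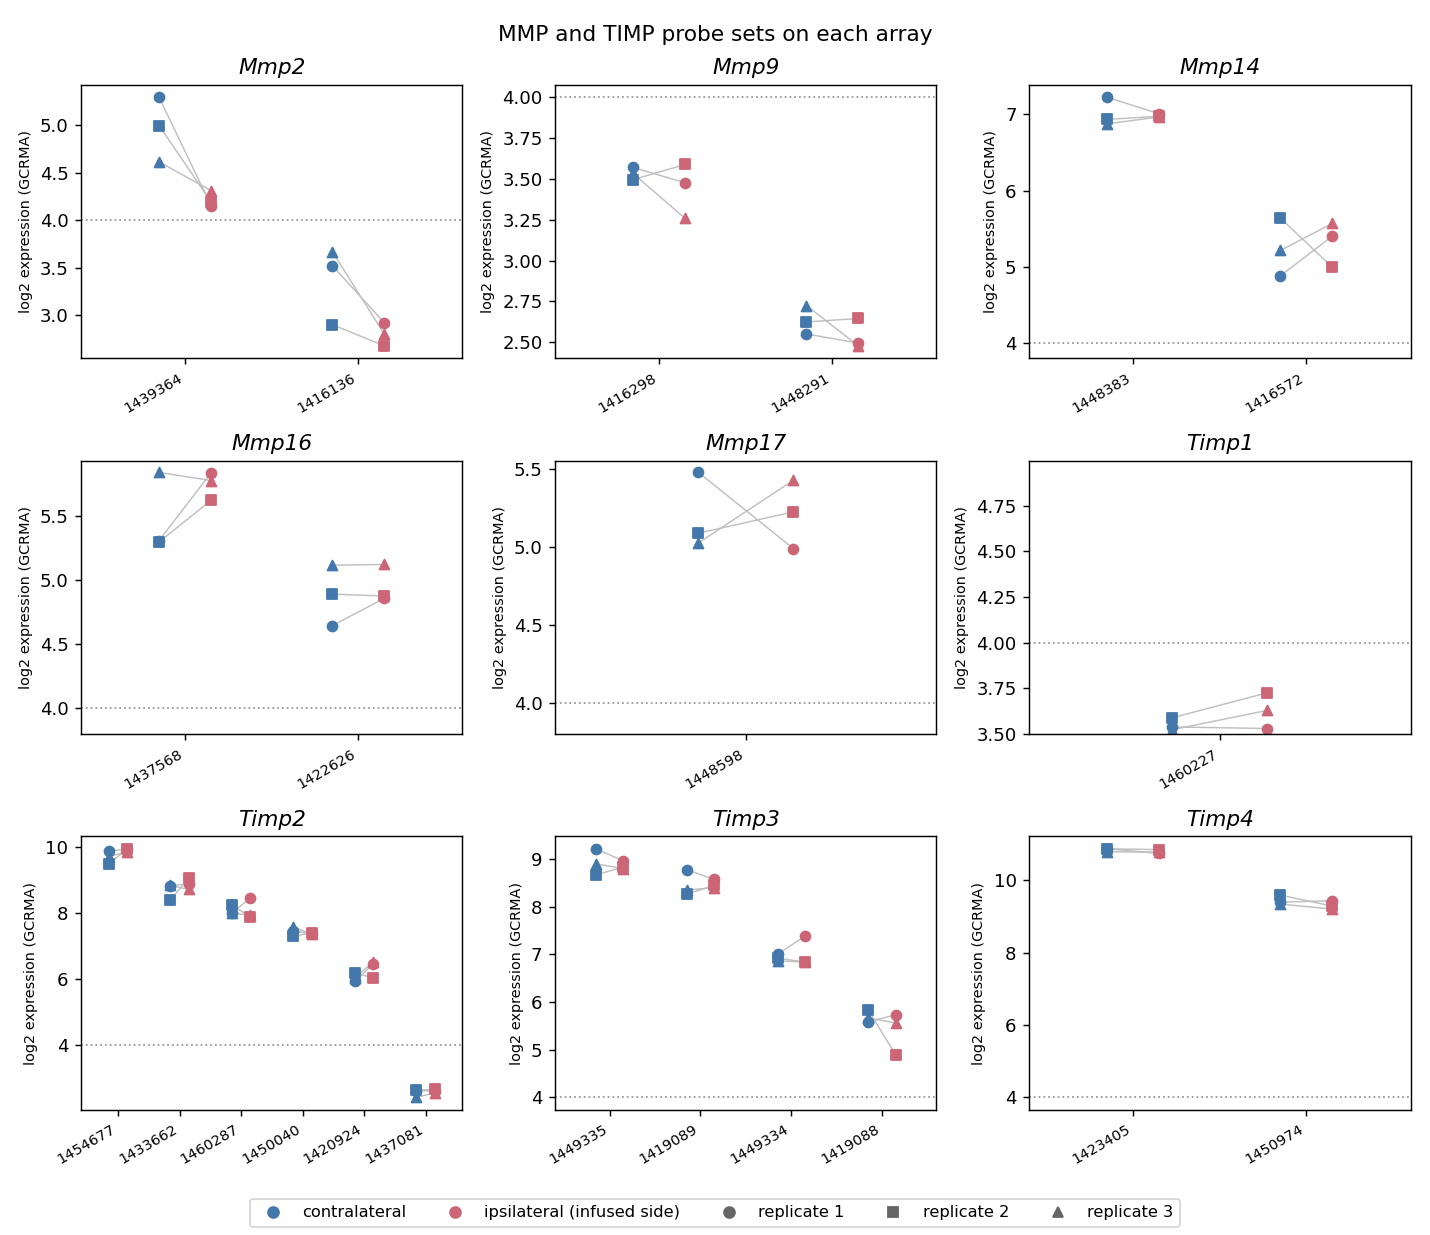
Log2 expression of the 22 MMP and TIMP probe sets (horizontal axis, by gene) on the 3 contralateral (blue) and 3 ipsilateral (red) arrays, with symbols for the replicate number, grey lines joining equal numbers and a dotted line at the limit of 4. The sides are apart in the left probe set of Mmp2 and overlap in all others that lie above the limit, and both Mmp9 probe sets, Timp1, the right Mmp2 probe set and the right Timp2 probe set lie below it.

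Mmp2, which degrades denatured collagen and type IV collagen of basement membranes, had the largest difference between the sides among the members. Its brighter probe set (1439364_a_at) measured 5.29, 4.99 and 4.61 on contralateral arrays 1, 2 and 3 and 4.15, 4.19 and 4.31 on ipsilateral arrays 1, 2 and 3. Every ipsilateral array was below every contralateral array, and the contralateral arrays were spread while the ipsilateral ones lay close together. The means were 4.97 ± 0.34 and 4.22 ± 0.08 (SD, n = 3 each), a difference of -0.75, or a 1.68-fold lower signal. By replicate number the difference was -1.14, -0.80 and -0.30. Of the 15298 probe sets tested, 29 (0.19%) had a difference as low or lower, and this place is what brought Mmp2 to attention. In pooled tissue, fewer cells that make a transcript and less transcript per cell cannot be told apart.

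The ipsilateral mean of Mmp2 lay 0.22 above the limit of 4. The background correction of the deposited values can compress dim signals, and whether it did so for Mmp2 was not tested. The second Mmp2 probe set (1416136_at) was dimmer still, with a mean of 3.08, and was not tested. It measured 3.52, 2.90 and 3.67 contralaterally and 2.92, 2.67 and 2.80 ipsilaterally. The sides overlapped, because contralateral array 2 lay just under ipsilateral array 1. The infused side was lower in 3 of 3 replicates, the pattern of 13% of all probe sets tested. The differences by replicate were -0.60, -0.22 and -0.87, so replicate 3 had the smallest difference in the brighter probe set and the largest in the dimmer one. The difference of the means was -0.57, and the values of the pair of probe sets over the 6 arrays correlated at r = 0.59, a description over arrays that share sides and pools.

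Ipsilateral array 1, rich in the markers, and ipsilateral arrays 2 and 3, poor in them, gave Mmp2 values within 0.16 of one another. The difference was -0.72 without ipsilateral array 1, -0.82 without ipsilateral arrays 2 and 3, and -0.75 in a limma fit that held the mean of the choroid plexus markers as a covariate. On the contralateral arrays Mmp2 (5.29, 4.99 and 4.61) and the choroid plexus average (7.99, 7.74 and 7.23) had the same order. On the ipsilateral arrays they did not, at 4.15, 4.19 and 4.31 for Mmp2 and 9.01, 4.78 and 5.01 for the average. Of other sources, the 11 markers of meninges and fibroblasts, all above the limit, averaged 7.23, 6.86 and 6.92 contralaterally and 6.93, 7.00 and 6.89 ipsilaterally, and 6 of 11 were lower on the infused side. The 8 tested mural cell markers averaged 6.30 to 6.37 contralaterally and 6.20 to 6.35 ipsilaterally, and 6 of 8 were lower. Of the 11 tested endothelial markers 8 were lower, with averages of 6.51 to 6.62 and 6.40 to 6.63. Contralateral array 1 had the highest value of both Mmp2 and the meningeal average, and the part of these cells and of choroid plexus tissue in the Mmp2 difference was not tested.

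**Figure D2:**
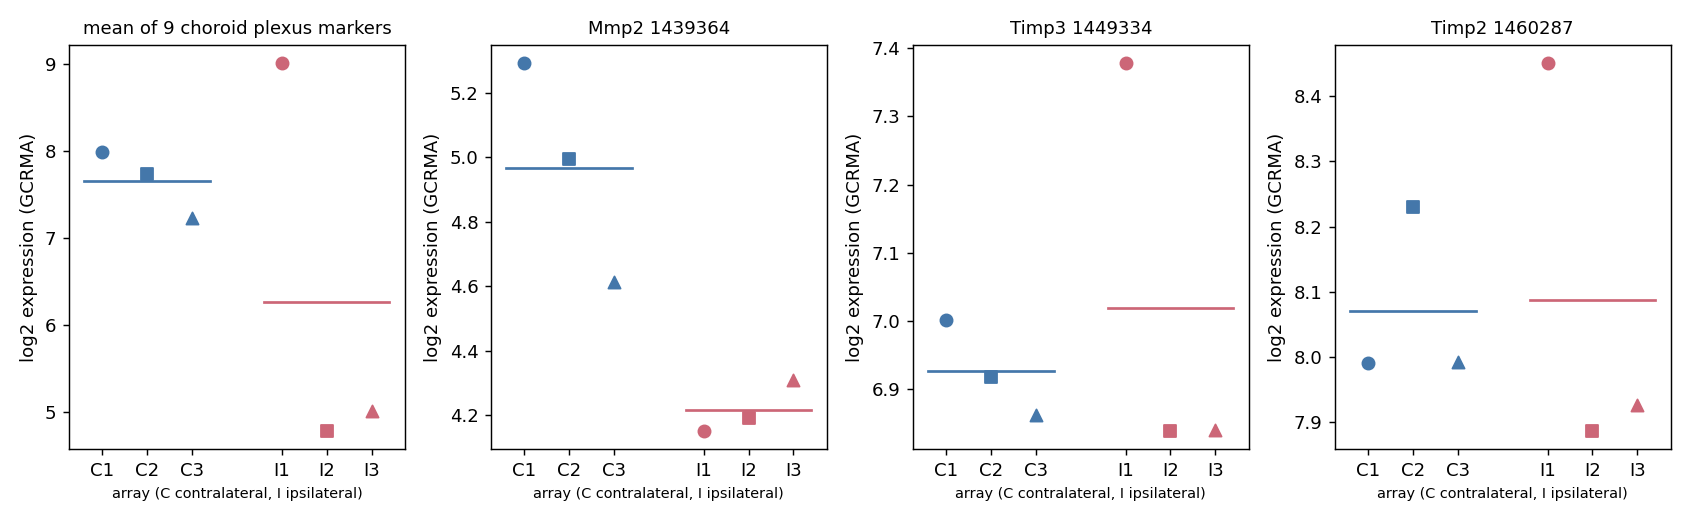
Mean log2 value of 9 choroid plexus markers and log2 expression of 3 member probe sets on contralateral arrays (C1 to C3, blue) and ipsilateral arrays (I1 to I3, red), with lines at the means of the sides and a vertical scale of its own in each panel. Mmp2 separates the sides (5.29 to 4.61 against 4.15 to 4.31), while Timp3 and Timp2 probe sets, picked after their values were seen, are highest on the array with the most choroid plexus signal.

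The genes whose values over the 6 arrays were most like those of Mmp2 were Racgap1, which acts in cytokinesis (Pearson r = 0.999), Rem2, a small GTPase that regulates calcium channels (0.982), Gatad2b, a subunit of the NuRD chromatin complex (0.977), Tmem184c (0.975) and Kcnab1, an accessory subunit of potassium channels (0.969). After each side's mean was taken out, the correlations were 0.998, 0.941, 0.941, 0.896 and 0.892. Choosing the genes by r over the same arrays favours these values, and no background was taken for them. All 5 lay lower on every ipsilateral array, with differences of -0.56, -0.57, -0.15, -0.14 and -0.36, an order that 3.44% of all probe sets tested had and that choosing genes by their likeness to Mmp2 favours. Of the 8753 tested named genes besides Mmp2, 56 (0.64%), these 5 among them, reached an r of 0.9 over the 6 arrays. Another probe set of Racgap1 differed by 0.08 and another of Kcnab1 by -0.54.

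Mmp9 (gelatinase B), the other gelatinase and a protease that neurons release during plasticity, was dim in both of its probe sets and was not tested. The brighter (1416298_at) measured 3.57, 3.50 and 3.53 contralaterally and 3.48, 3.59 and 3.26 ipsilaterally, and the dimmer (1448291_at) lay between 2.48 and 2.72 on all arrays. The sides overlapped in both, and signals this dim were not compared in the fit.

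Among the membrane-anchored MMPs, Mmp14, the activator of Mmp2, differed little between the sides. Its brighter probe set (1448383_at) measured 7.23, 6.93 and 6.88 contralaterally and 7.01, 6.98 and 6.97 ipsilaterally, a difference of -0.03 (limma SE 0.12). Its dimmer probe set (1416572_at) measured 4.88, 5.64 and 5.22 and then 5.40, 4.99 and 5.57, a difference of 0.08 (SE 0.23). The sides overlapped in both, and the probe sets ran against each other over the arrays (r = -0.58). Leaving out contralateral array 1, the highest in the brighter probe set, turned its difference to 0.08.

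Mmp16, another transmembrane MMP that can activate Mmp2, was higher on the infused side on average in both probe sets. The brighter (1437568_at) measured 5.31, 5.30 and 5.84 contralaterally and 5.84, 5.63 and 5.78 ipsilaterally. Its sides overlapped because contralateral array 3 was as high as the highest ipsilateral array, and the difference of 0.26 (SE 0.17) was close to the spread within sides of 0.23. The other (1422626_at) measured 4.65, 4.89 and 5.12 and then 4.86, 4.88 and 5.12, a difference of 0.07. Mmp17, which is held in the membrane by a lipid (GPI) anchor, measured 5.48, 5.09 and 5.02 contralaterally and 4.99, 5.22 and 5.43 ipsilaterally. Its replicates went in opposite directions (-0.49, 0.14 and 0.40), and the difference of the means was 0.02 (SE 0.17).

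**Figure D3:**
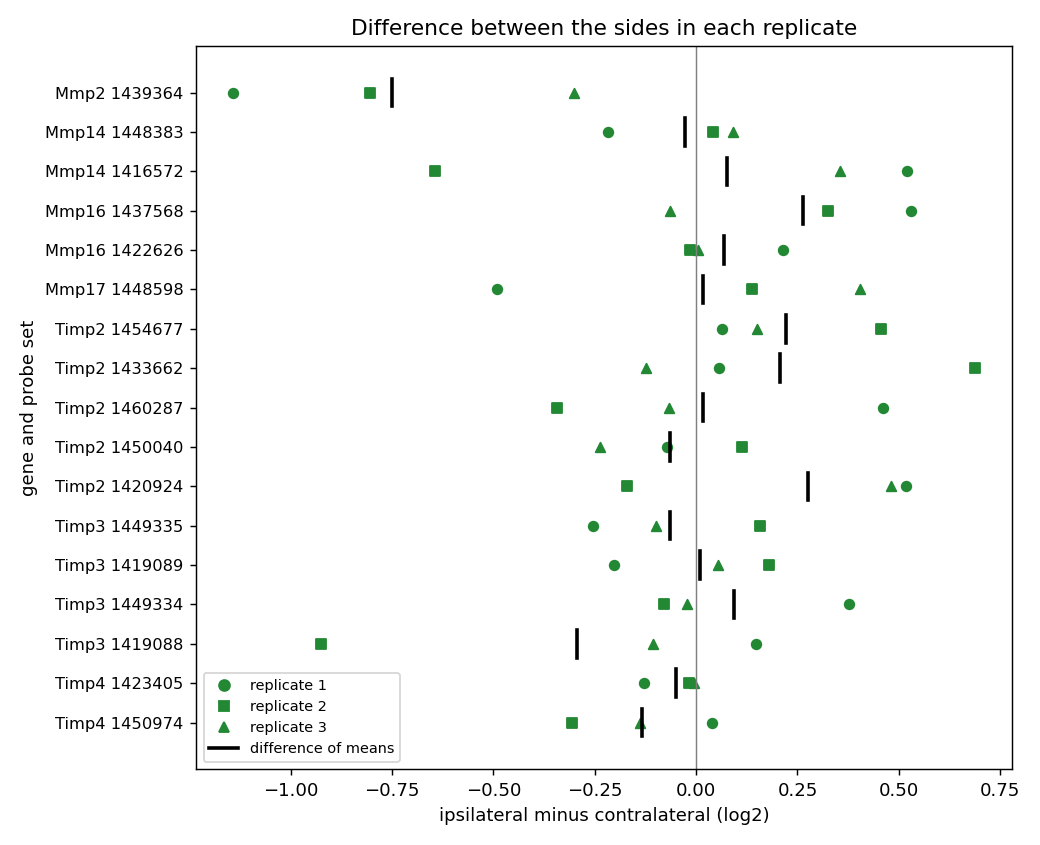
Ipsilateral minus contralateral difference (log2) of the 17 tested member probe sets in replicates 1, 2 and 3 (symbols), with the difference of the means as a black bar. In Mmp2 all 3 replicates lie below 0, from -1.14 to -0.30, in 1 Timp4 probe set they lie between -0.13 and just under 0, in 1 Timp2 probe set all lie above 0, from 0.06 to 0.45, and in the other 14 the replicates differ in sign.

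The inhibitor Timp2, which both restrains MMPs and serves in the activation of Mmp2, had the most probe sets, and they did not agree. The brightest (1454677_at) measured 9.87, 9.49 and 9.70 contralaterally and 9.93, 9.94 and 9.85 ipsilaterally. It was higher on the infused side in 3 of 3 replicates, the pattern of 10.7% of all probe sets tested, and the sides overlapped only through contralateral array 1. Its difference was 0.22 (SE 0.12), or 1.17-fold.

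A second Timp2 probe set (1433662_s_at, whose suffix marks probes shared between transcripts) followed it over the arrays at r = 0.87 and differed by 0.21 (SE 0.16). The remaining tested ones differed by 0.02 (1460287_at), -0.07 (1450040_at) and 0.28 (1420924_at), and a further one (1437081_at) lay between 2.41 and 2.65 and was not tested. In 1420924_at the contralateral values were 5.93, 6.19 and 6.03 and the ipsilateral ones 6.45, 6.02 and 6.51, so that replicate 2 went down where the brightest probe set went up by 0.45. Of the 10 pairings of tested Timp2 probe sets 5 correlated below 0 over the arrays, from -0.53 upward.

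Timp3, an inhibitor that stays bound to the matrix and also blocks ADAM proteases, had 4 probe sets, all tested. The brightest (1449335_at) measured 9.21, 8.67 and 8.90 contralaterally and 8.96, 8.83 and 8.80 ipsilaterally, a difference of -0.07 (SE 0.15). The others differed by 0.01 (1419089_at), 0.09 (1449334_at) and -0.29 (1419088_at), and the sides overlapped in all 4. In 1419088_at ipsilateral array 2 measured 4.90 and the other 5 arrays between 5.56 and 5.82, so a single array made most of that difference.

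All 4 Timp3 probe sets were higher on ipsilateral array 1, rich in choroid plexus markers, than on ipsilateral arrays 2 and 3, by little in the brighter ones. Against the contralateral mean, ipsilateral array 1 alone was higher by 0.03, 0.11, 0.45 and 0.04, in the order of brightness. Ipsilateral arrays 2 and 3 differed from it by -0.11, -0.04, -0.09 and -0.46. In 1449334_at, for instance, ipsilateral array 1 measured 7.38 and the other ipsilateral arrays 6.84 each, beside 7.00, 6.92 and 6.86 contralaterally. The Timp2 probe set 1460287_at behaved alike, at 8.45 on ipsilateral array 1 and 7.89 and 7.93 on the others, with differences of 0.38 from array 1 alone and -0.16 without it. Of the 17 member probe sets, 7 had opposite signs in these comparisons, but not all in the same direction. Mmp17 differed by -0.21 from ipsilateral array 1 alone and by 0.13 without it, and Mmp16 1422626_at by -0.03 and 0.11. The share of opposite signs over all probe sets tested was not counted. The part of choroid plexus tissue in these values was not tested.

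Timp4, the inhibitor most prominent in brain and heart, differed little. Its probe set 1423405_at measured 10.87, 10.86 and 10.78 contralaterally and 10.74, 10.84 and 10.78 ipsilaterally, with a spread within sides of 0.05 and a difference of -0.05 (SE 0.09). The infused side was lower in 3 of 3 replicates, as in 13% of all probe sets tested, and the sides overlapped. The other (1450974_at) differed by -0.13 (SE 0.11). Timp1, the inhibitor that is induced by injury and inflammation, was dim, at 3.54, 3.59 and 3.52 contralaterally and 3.53, 3.72 and 3.63 ipsilaterally, and was not tested.

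The rest of the MMP family was mostly too dim to be compared. Of 17 further MMP genes 13 had a probe set, 10 of these lay at or below the limit of 4, Mmp3 (stromelysin-1) and Mmp11 among them, and 3 were tested. None of the 3 passed in limma at an adjusted p below 0.05, and 0 had an unadjusted p below 0.05, in limma and in the plain test. All 3 were higher on average on the infused side, as were 7376 of the 15298 probe sets tested. Mmp23, named after its values were seen, passed the limit only through the infused side. Its means were 3.96 contralaterally and 4.20 ipsilaterally, so the filter favoured its direction. Mmp24, a membrane-anchored MMP of neurons, measured 5.85 ± 0.17 contralaterally and 5.91 ± 0.22 ipsilaterally (n = 3 each).

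Genes that activate, dock or restrain MMPs were lower in 10 of 17 tested cases and higher in 7, with a median of -0.08, beside -0.01 over all probe sets. The median kept its sign in all 17 alternatives. It was -0.12 with the mean of all tested probe sets of a gene and -0.11 without replicate 1 of both sides. It was -0.04 without contralateral array 3, -0.02 with a covariate for the choroid plexus level and -0.007 without ipsilateral arrays 2 and 3. In limma 0 passed and 0 had an unadjusted p below 0.05. Reck, a membrane-anchored inhibitor of MMPs, measured 6.82 ± 0.20 and 6.64 ± 0.06, and Furin, the convertase that removes the propeptide of membrane-anchored MMPs, 5.49 ± 0.23 and 5.61 ± 0.08. Bsg, an inducer of MMP synthesis, measured 12.55 ± 0.23 and 12.38 ± 0.28. The tissue plasminogen activator gene Plat differed by 0.02, the endocytic receptor gene Lrp1, which clears MMPs, by 0.03, and the testican gene Spock2 by 0.05.

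Of the 13 tested ADAM and ADAMTS proteases, which share the metalloproteinase fold and are Timp3 targets in part, 5 were lower and 8 higher. The sheddase genes Adam10 and Adam17 differed by 0.17 and 0.06, and the aggrecanase gene Adamts4 by 0.11. In limma 0 passed the adjusted threshold and 1 had an unadjusted p below 0.05. It was Adamts1, a secreted protease that cuts proteoglycans, named here after its values were seen, at 6.23 ± 0.24 and 5.78 ± 0.24 (difference -0.44, limma adjusted p = 1.00). Its arrays read 6.26, 6.45 and 5.97 contralaterally and 6.07, 5.66 and 5.63 ipsilaterally, so the sides overlapped.

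MMP substrates of matrix and cell surface were lower in 8 of 14 cases and higher in 6, with 0 past either limma threshold. The dystroglycan gene Dag1, whose product Mmp9 cuts, differed by 0.04, and the perineuronal proteoglycan genes Bcan and Ncan by 0.16 and 0.11. The type IV collagen genes Col4a1 and Col4a2, named after their values were seen, differed by -0.27 and -0.17. Col4a1 measured 8.58, 8.29 and 8.12 contralaterally and 7.93, 8.12 and 8.12 ipsilaterally, so that the sides touched without overlapping, an order that 3.44% of all probe sets tested had. Tnr had no probe set with it as the single symbol.

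Transcription factors known to act on MMP and TIMP genes held the largest differences of these lists, with 9 of 13 lower, 4 higher and 0 past the adjusted threshold in limma. Fos, a subunit of AP-1, measured 9.67, 9.81 and 8.82 contralaterally and 7.51, 7.47 and 7.79 ipsilaterally, a difference of -1.85 (limma adjusted p = 1.00). Fos was lower in 3 of 3 replicates, as were 13% of all probe sets tested. Its partner Jun, named after its values were seen, ran the other way at 8.06, 8.37 and 8.36 and then 8.56, 8.62 and 9.03, a difference of 0.47. Jund and Ets2 differed by -0.03 and 0.21. At an unadjusted p below 0.05, 3 of the 60 tested genes of the 5 lists (5%) were counted, Fos, Jun and Adamts1, beside 2.38% of all probe sets tested. With the replicate block there were 5 (8.33%), which added Junb and Egr1, beside 3.72%. Of these, Junb passed the limit of 4 only through the contralateral side, with means of 4.75 contralaterally and 3.92 ipsilaterally. With the plain test there was 1, Fos, beside 2.77% of all probe sets. A share of 5% is what an unadjusted p below 0.05 allows when no gene differs. The lists were also chosen with earlier results of these data known, so these shares are no test of the lists.

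**Figure D4:**
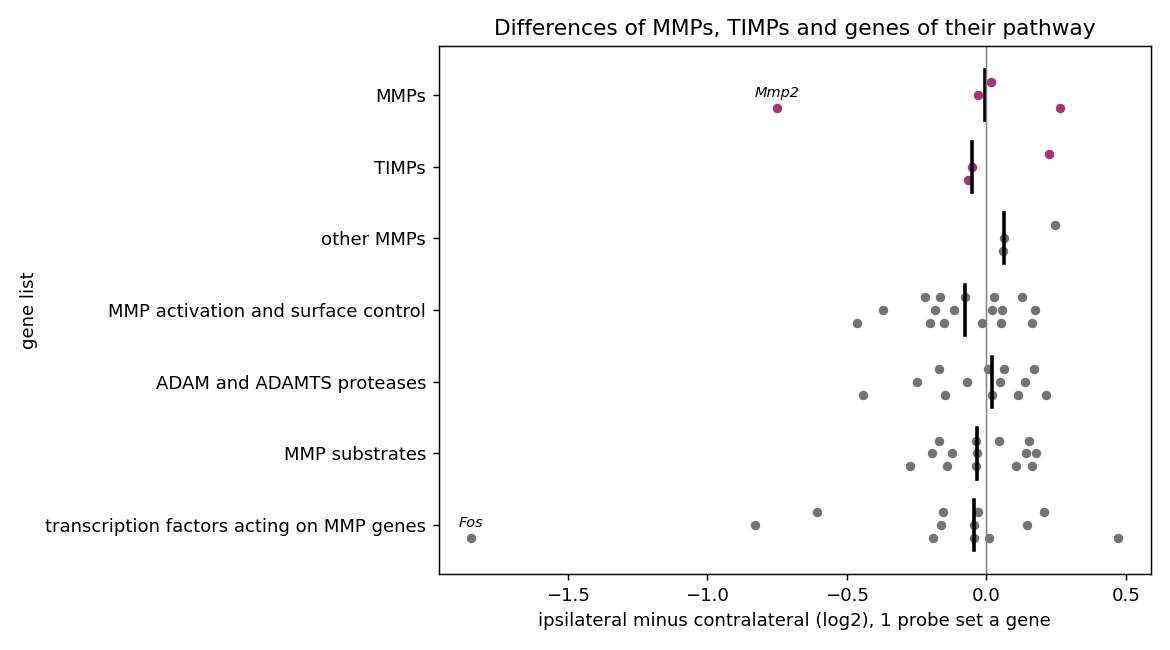
Ipsilateral minus contralateral difference (log2) of each tested gene (points, 1 probe set a gene, that of highest mean) for the MMPs and TIMPs of this report and 5 lists of related genes, with the median of each as a black bar. The medians lie between -0.08 and 0.06, Mmp2 stands at -0.75 and Fos at -1.85.

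The Mmp2 difference kept its sign under every alternative tried, from -0.97 without replicate 3 of both sides to -0.55 without replicate 1 of both sides. Among single arrays left out, the extremes were -0.59 without contralateral array 1 and -0.93 without contralateral array 3. A stable sign is no test of Mmp2, since the gene was chosen for a difference in which the sides do not overlap.

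**Figure D5:**
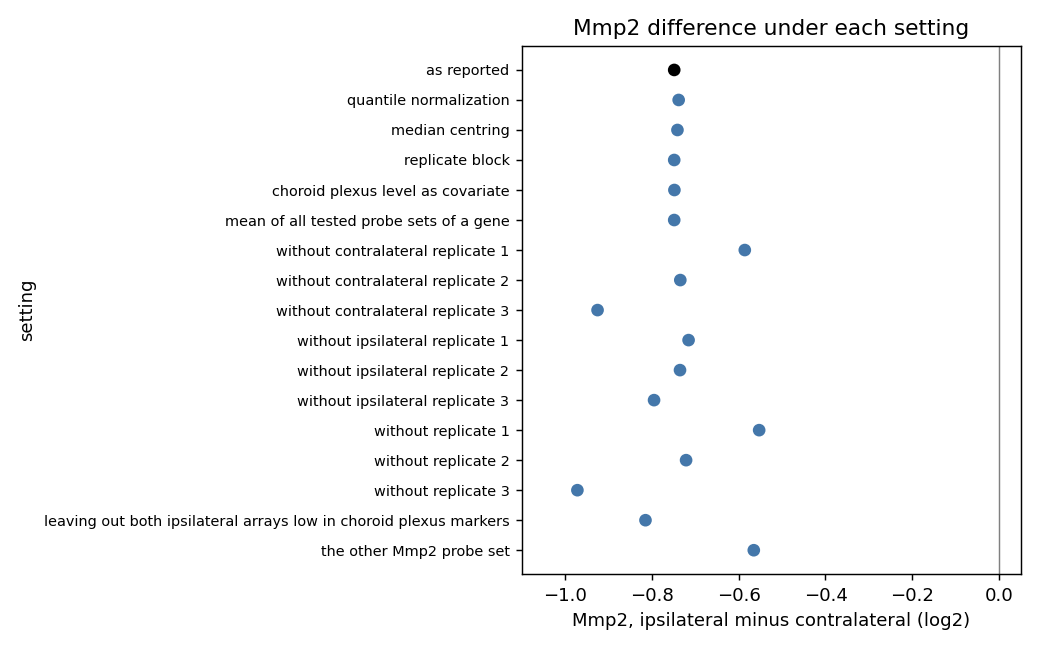
Mmp2 difference between the sides (log2, ipsilateral minus contralateral) as reported (black) and under each alternative setting (blue). The values run from -0.97 to -0.55, all below 0, with -0.57 for the other Mmp2 probe set.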

How the data were processed

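Messenger RNA was measured in 6 pools of mouse cochlear nucleus tissue on Affymetrix arrays. The deposited values are log2 expression values per probe set, made with GCRMA per the submitters' processing notes. This method corrects background by probe sequence, normalizes between arrays and summarises probes. Neither its version nor its settings are known here. The log2 scale follows from a range of 1.40 to 16.0. GCRMA can compress dim probe sets and removes changes common to most genes. The array medians lay between 5.86 and 5.91.

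The descriptions of the samples give side and replicate. Probe sets took their names from the platform annotation: 20393 had 1 symbol, 691 several and 1606 none, and 20364 matched RefSeq (GRCm38.p6) by Entrez identifier. The 64 control probe sets and 7328 with a mean at or below 4 were left out, and limma 3.58.1 in R 4.3.3 (lmFit, eBayes) was fitted to the other 15298, ipsilateral minus contralateral, with Benjamini-Hochberg adjustment. The fit was tested on simulated data. A gene in a list stood by its probe set of highest mean. Arrays give no depth, so their number limits precision. The limma p-values set the difference of the sides against the spread between arrays of a side, moderated over all probe sets. That spread holds differences in dissection as well as between pools. The fit without the block takes the pools of the sides as independent.

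The members, lists and alternatives were chosen with earlier results of these data known. Named genes were all members, genes of the lists set whatever their values, 3 choroid plexus markers, the 5 genes of highest r with Mmp2, and others said to be named after their values were seen. The labels do not state that samples of equal replicate number come from the same mice. This was read from the design, in which 1 ear of each mouse was infused. Deviations from the side's mean correlated at 0.09, 0.04 and 0.57 for equal numbers over the tested probe sets and at -0.37 to 0.30 for unequal ones, so these values do not settle the pairing. Alternatives were the replicate block, other filters and normalizations, the choroid plexus level as a covariate, and leaving out arrays.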

Additional observations from a re-analysis of the deposited data

How the results depend on the processing

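The count of probe sets past the adjusted threshold in limma was 0 under every alternative except without ipsilateral replicate 1 (5: Kl, Sostdc1, Kcne2, Folr1 and Ttr, all choroid plexus markers and lower) and without replicate 1 of both sides (2: Sostdc1 and Kcne2), a range of 0 to 5. With the replicate block it was 0 and no call changed, while the unadjusted count moved from 364 to 569. The Mmp2 difference stayed at -0.75, as it must when each replicate number has 1 array per side. The Mmp2 difference lay between -0.97 and -0.55 over 16 alternatives, 1 of them, the other Mmp2 probe set, chosen after seeing the data. The block and the mean of all tested probe sets, of which Mmp2 had 1, could not move it. The median of the member genes, 1 probe set a gene, was -0.03 and lay between -0.08 and 0.08, changing sign in 3 of 17. Mmp16, Timp2 and Timp4 kept their sign in all their alternatives, Mmp14 and Timp3 changed it in 3 of 17 each and Mmp17 in 7 of 16. All these values moved by less than the spread between replicates. For a single gene, the replicate block and leaving out a replicate of both sides could not move the value further, so they are no test of stability. The ADAM and ADAMTS median, 0.02, was -0.05 without replicate 2 of both sides. Mmp9 and Timp1 were compared in no fit with the limit of 4. Signal near background limits Mmp2, Mmp9 and Timp1.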

Other observations

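Some genes of the MMP network were high on the ipsilateral array with the most choroid plexus signal and low on the ipsilateral arrays with the least, and they are named here after their values were seen, as values with no explanation. A2m, the broad protease inhibitor alpha-2-macroglobulin, measured 7.58, 7.58 and 7.67 on the contralateral arrays. On the ipsilateral arrays it measured 8.16, 6.46 and 6.82. Pcolce, an enhancer of procollagen processing, measured 7.88, 8.21 and 7.75 and then 8.77, 7.01 and 6.96. Lamb1, a laminin chain, measured 7.74, 7.54 and 7.26 and then 8.36, 6.76 and 7.06. In each, ipsilateral array 1 was the highest of the 6 arrays and ipsilateral arrays 2 and 3 were the lowest. On the contralateral arrays, where the choroid plexus average fell from array 1 to array 3, Lamb1 had that order and A2m and Pcolce did not.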
